A study of Caenorhabditis elegans with 2 samples.

Results

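The chromatin modifier and remodeller genes of Caenorhabditis elegans were examined for nearby binding of UNC-130, a forkhead transcription factor of the FoxD class. Members were the protein-coding genes of the WBcel235 gene models whose names start with set-, met-, jmjd-, hda-, hpl-, swsn-, mys- or utx-, which gave 62 of 19973 protein-coding genes with mitochondrial ones left out. The data came from chromatin immunoprecipitation with sequencing (ChIP-seq) of whole L1 larvae, of mixed sex, of strain OP77, which carries the unc-119(ed3) III allele and the integrated transgene wgIs77 for eGFP-tagged UNC-130. There was 1 such group with 2 biological replicates, and control libraries were not analysed here, so every value below describes binding in this strain and none is a contrast between conditions. A peak in whole larvae belongs to no particular cell type, and the lists do not tell the cells with the tagged protein from the rest.

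Chromatin genes of this kind encode enzymes that add or remove chemical groups on histone tails, proteins that bind the marked tails, and ATP-driven machines that move nucleosomes. Methyltransferases with a SET domain and acetyltransferases of the MYST family act as writers, JmjC-domain demethylases and histone deacetylases as erasers, heterochromatin proteins as readers, and SWI/SNF complexes as remodellers. In the worm these genes are known for parts in germline memory, vulval development, lifespan and the silencing of repeats.

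The optimal list, the authors' set of peaks that passed their reproducibility threshold, held 2631 peaks, and each replicate had a longer list of candidate peaks (30000 in replicate 1 and 25234 in replicate 2), as did the pooled reads (30000). A member was counted where the summit of a peak lay within 2000 bp of its 5′ end. By that rule 14 of the 62 chromatin genes (22.6%) had an optimal summit, against 15.4% of all protein-coding genes, a ratio of 1.47. When each replicate was cut to its own 2631 highest peaks, 15 members (24.2%) had a summit in replicate 1, against 15.8% of all genes, and 13 (21.0%) in replicate 2, against 13.5%. In the long candidate lists the shares lay closer together, with 48 members (77.4%) against 68.6% of all genes in the pooled list, 44 (71.0%) against 68.8% in replicate 1, and 47 (75.8%) against 64.1% in replicate 2. No set test was made, since the members were chosen with results of these data known. When a summit was given only to the gene with the nearest 5′ end, 7 members kept one, since the other 7 summits lay nearer to a neighbour. The count over all genes fell too, to 1864 (9.33%), and the ratio was then 1.21.

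The sequences of 8 member peaks are printed to show what lies under the highest peaks and under those with a forkhead match. The first 6 are the 6 highest member peaks, and the last 2, at set-26 and hda-1, are the only member peaks with the forkhead form TGTTTAC or TGTTTGC within 50 bp of the summit. Each is the ce11 peak as deposited, read from the RefSeq WBcel235 genome on the strand of the member, 5′ to 3′. The peaks are chrIII:13643591-13643840 (plus strand, set-16), chrIV:4660401-4660650 (plus, jmjd-1.2), chrIV:5364213-5364462 (minus, hda-6), chrIII:2768709-2768958 (minus, swsn-3), chrII:6331476-6331725 (minus, set-4), chrIV:5394778-5395027 (plus, swsn-6), chrIV:16656332-16656581 (minus, set-26) and chrV:14524295-14524544 (plus, hda-1). Capitals mark TGTTTGC, the palindrome TGGC and GCCA with 5 bases of any kind between them (or its longer form TTGGC and GCCAA), GAGACGCAG and CACGTG, on either strand. The longer palindrome contains the shorter one, and both TGTTTGC matches lie on the strand opposite to the print, where they read GCAAACA.
set-16: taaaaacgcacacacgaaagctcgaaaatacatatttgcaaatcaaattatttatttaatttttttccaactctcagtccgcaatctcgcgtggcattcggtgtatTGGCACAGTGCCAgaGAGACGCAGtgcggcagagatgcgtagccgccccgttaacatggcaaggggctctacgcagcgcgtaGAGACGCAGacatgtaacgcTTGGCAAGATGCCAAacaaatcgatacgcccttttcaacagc
jmjd-1.2: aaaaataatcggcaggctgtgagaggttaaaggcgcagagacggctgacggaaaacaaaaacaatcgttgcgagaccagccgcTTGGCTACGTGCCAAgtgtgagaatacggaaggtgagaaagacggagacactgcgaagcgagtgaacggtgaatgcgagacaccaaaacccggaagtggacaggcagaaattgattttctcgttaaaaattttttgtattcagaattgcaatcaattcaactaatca
hda-6: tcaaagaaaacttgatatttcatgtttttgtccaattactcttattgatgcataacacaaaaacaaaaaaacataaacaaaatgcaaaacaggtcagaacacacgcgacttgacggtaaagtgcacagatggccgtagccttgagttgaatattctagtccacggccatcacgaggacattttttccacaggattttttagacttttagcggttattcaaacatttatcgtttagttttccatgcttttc
swsn-3: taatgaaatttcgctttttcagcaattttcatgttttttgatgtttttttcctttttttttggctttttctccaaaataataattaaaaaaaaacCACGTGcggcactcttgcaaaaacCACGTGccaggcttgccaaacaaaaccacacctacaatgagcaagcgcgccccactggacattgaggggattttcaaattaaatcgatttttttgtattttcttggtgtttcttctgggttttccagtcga
set-4: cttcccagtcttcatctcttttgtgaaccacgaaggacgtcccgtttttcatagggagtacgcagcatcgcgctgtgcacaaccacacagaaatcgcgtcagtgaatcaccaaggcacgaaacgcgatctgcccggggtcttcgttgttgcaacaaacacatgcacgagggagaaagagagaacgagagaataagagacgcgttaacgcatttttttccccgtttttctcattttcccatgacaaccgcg
swsn-6: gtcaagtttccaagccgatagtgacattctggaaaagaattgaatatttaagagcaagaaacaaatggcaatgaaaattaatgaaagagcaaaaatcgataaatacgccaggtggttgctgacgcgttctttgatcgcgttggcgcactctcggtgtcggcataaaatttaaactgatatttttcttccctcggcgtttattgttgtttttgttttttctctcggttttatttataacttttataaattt
set-26: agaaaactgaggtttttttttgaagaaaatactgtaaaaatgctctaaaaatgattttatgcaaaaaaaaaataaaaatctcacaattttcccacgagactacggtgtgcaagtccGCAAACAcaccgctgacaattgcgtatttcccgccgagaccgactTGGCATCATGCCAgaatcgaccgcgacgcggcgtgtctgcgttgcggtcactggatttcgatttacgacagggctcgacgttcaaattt
hda-1: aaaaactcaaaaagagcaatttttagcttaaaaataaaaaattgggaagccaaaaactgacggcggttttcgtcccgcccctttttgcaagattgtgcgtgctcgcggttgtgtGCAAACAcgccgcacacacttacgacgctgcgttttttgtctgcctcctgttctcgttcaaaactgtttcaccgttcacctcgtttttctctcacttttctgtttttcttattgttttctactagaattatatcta

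In these letters a spaced palindrome recurs. TGGC followed after 5 bases by GCCA, the form known in vertebrates as the site of nuclear factor I proteins, lay within 50 bp of the summits of set-16, jmjd-1.2 and set-26. That is 3 of the 14 member summits (21.4%), against 50 of the 2631 optimal summits (1.90%) and 35 of 19973 windows of 101 bp centred 150 bp upstream of protein-coding 5′ ends (0.175%). The longer form with TTGGC and GCCAA lay at jmjd-1.2, and again in the peak of set-16, 90 bp from its summit and so outside that window, against 0.836% of all optimal summits. The peak of set-16 thus held the palindrome at 13 bp and at 90 bp from its summit. It held GAGACGCAG once across the summit itself and once 67 bp away. GAGACGCAG lay at 1 member summit (7.14%), against 6.92% of all optimal summits and 1.25% of the upstream windows. CACGTG, the E-box palindrome bound by many basic helix-loop-helix proteins, lay at 2 member summits, those of swsn-3 and met-1 (14.3%), against 7.98% of all optimal summits and 1.79% of the upstream windows. The peak at swsn-3 held it at 2 places within 50 bp of the summit. These 3 motifs were read from the printed sequences after the values were known, so their counts are descriptions with no test. In the printed sequences none of them overlaps a marked forkhead match.

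The forkhead form TGTTTGC lay 5 bp from the summit at set-26 and 8 bp from it at hda-1, by the centre of the match, and TGTTTAC lay at none of the 14 member summits. The 2 members make 14.3%, against 280 of all 2631 optimal summits (10.6%), a share near the background. In the upstream windows of all 62 members neither form was found, against 946 of the 19973 windows of all genes (4.74%). The match at hda-1 stood in the peak with the lowest pooled signal of the 14, and the 6 highest member peaks held neither form within 50 bp of the summit. Other forms of a forkhead site were not searched.

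Among the writers, set-16 had the highest member peak. The gene set-16 encodes the worm's MLL-type histone methyltransferase, the catalytic subunit of a complex that also holds the demethylase UTX-1. Its summit lay 200 bp upstream of its 5′ end, with a pooled signal of 108 on the authors' scale, which runs from 23.5 to 218 in the optimal list, and it ranked 62 of 2631 there. It ranked 49 in the list of replicate 1 and 127 in that of replicate 2, which put it at the 98.1st and 95.1st percentile among the 2566 optimal peaks found in both replicates. Both replicates therefore had this peak near the top. The same summit lay 146 bp from the 5′ end of drr-2, an RNA-binding protein gene that runs the other way from set-16 with 346 bp between both 5′ ends.

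Of the 31 set- genes, 6 had an optimal summit (19.4%), a share near the 15.4% of all genes. After set-16 came set-4, which encodes the worm's Suv4-20-type histone methyltransferase, known for its part in X chromosome dosage compensation. Its summit lay 260 bp upstream (rank 276, pooled signal 70.1), and no other protein-coding 5′ end lay within 2000 bp of it. The replicates differed here, with the 92.0th percentile in replicate 1 and the 61.1st in replicate 2. The gene set-26 encodes a protein with PHD and SET domains that binds methylated histone tails and limits lifespan in the worm, and its summit lay 574 bp upstream (rank 402, pooled signal 61.5), at the 77.5th and 88.3rd percentile in replicates 1 and 2. That summit was nearer to tsr-2, at 156 bp. Its close paralog set-9 had no optimal summit and a highest pooled candidate signal of 8.14, at 880 bp upstream. Reads from shared sequence cannot be told apart between such paralogs: within 2000 bp of the 5′ end, 68.9% of 36-base stretches occurred once in the genome at set-26 and 65.9% at set-9, although every 36-base stretch of the set-26 peak itself occurred once.

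The other set- genes with a peak stood lower. The summit at set-21, a SET-domain gene, lay 169 bp upstream (chrIV:4390550-4390799, rank 603, percentiles 61.8 and 80.2 in replicates 1 and 2) and only 85 bp from the 5′ end of the ribosomal protein gene rpl-7A. In that peak 88.4% of 36-base stretches were unique. The gene set-18, of the SMYD class, had the only member summit downstream of its own 5′ end, 1026 bp into an intron (chrI:10591604-10591853, rank 1608, percentiles 51.7 and 23.9). The summit counted for set-5 lay 1889 bp upstream (chrV:14696952-14697201, rank 2082) but 423 bp from unc-112, the kindlin gene of muscle attachments, and its percentiles were 13.2 in replicate 1 and 74.1 in replicate 2. At set-5 the replicates thus disagreed on whether the peak was low or high.

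Several well-known set- genes had candidates below the threshold of the list. The gene set-2, the catalytic subunit of the worm's COMPASS methyltransferase complex, reached a pooled signal of 22.4, and so did set-1, which encodes a PR-Set-type methyltransferase. Within 2000 bp of set-1 the highest candidate of each replicate, which need not be the pooled peak, ranked 1393 in replicate 1 and 9540 in replicate 2, and at set-2 these ranks were 3001 and 3498. The gene set-3 reached 19.1. The highest candidates at set-17, set-25 and set-32 had pooled signals of 12.5, 7.02 and 5.44. The genes set-25 and set-32 encode methyltransferases known for silencing of repeats and of small-RNA targets, and set-17 one that acts in sperm development. At set-25 only 49.5% of 36-base stretches within 2000 bp of the 5′ end were unique, the lowest share of the 62 members.

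Of the 2 met- genes, met-1 had an optimal summit and met-2 did not, too few genes for a share to be set against that of all genes. The gene met-1 encodes the Set2-type methyltransferase that marks transcribed genes, and its peak (chrI:4253951-4254200, rank 456, pooled signal 59.1) had its summit 121 bp upstream, inside the neighbouring gene C43E11.12. It stood at the 64.0th percentile in replicate 1 and the 89.2nd in replicate 2. For met-2, the SETDB-type methyltransferase of heterochromatin, no pooled candidate lay within 2000 bp. Of the 3 mys- genes for MYST acetyltransferases none had an optimal summit, and their highest candidates had pooled signals of 13.8 at mys-4, 11.5 at mys-1 and 4.84 at mys-2.

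Among the erasers, jmjd-1.2 and hda-6 had the highest peaks. The gene jmjd-1.2 encodes a PHF-type demethylase known for the mitochondrial stress response. Its summit lay 465 bp upstream (rank 148, pooled signal 83.4), at the 86.0th percentile in replicate 1 and the 96.3rd in replicate 2, and 325 bp from the 5′ end of F29B9.11 on the other strand. The gene hda-6 encodes a class II deacetylase, and its summit lay 32 bp upstream (rank 201, pooled signal 77.9), at the 88.9th and 93.1st percentile. This was the shortest distance to a member's own 5′ end among the 14. Both peaks were high in both replicates.

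The other jmjd- and hda- peaks were weaker, and genes of these classes were grouped as erasers by name only. At jmjd-4, for another JmjC-domain protein, the summit lay 114 bp upstream (chrIII:10334007-10334256, rank 1876, percentiles 20.2 and 40.4 in replicates 1 and 2) and 145 bp from mev-1, which encodes a subunit of succinate dehydrogenase. At hda-11, for the class IV deacetylase, it lay 84 bp upstream (chrV:10525975-10526224, rank 1292). Here the replicates differed most of all 14, with the 70.8th percentile in replicate 1 and the 2.18th in replicate 2, where the overlapping peak ranked 10567. At hda-1, the class I deacetylase of the nucleosome remodelling and deacetylase complex, the summit lay 969 bp upstream (rank 2245, pooled signal 26.5) inside the non-coding RNA gene C53A5.18, and 291 bp from the 5′ end of ril-1. Its percentiles were 15.8 and 20.7, and its ranks of 2792 and 2943 put it outside the 2631 highest peaks of either replicate.

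In all, 3 of 8 hda- genes and 2 of 8 jmjd- genes had an optimal summit, and the only utx- gene had none, against 15.4% of all genes. Classes this small allow no reading of their shares. The highest candidate among the remaining erasers was at jmjd-2, which encodes a KDM-type demethylase, with a pooled signal of 19.2. The highest candidate of each replicate within 2000 bp of jmjd-2 ranked 3702 in replicate 1 and 1797 in replicate 2, and these need not be the same peak. At hda-2 the signal was 12.7, at jmjd-3.1 it was 11.2, at utx-1 6.93, at hda-5 6.26, at jmjd-3.2 5.95, at hda-4 5.26 and at jmjd-1.1 5.02. No pooled candidate lay within 2000 bp of hda-3, hda-10, jmjd-3.3 or jmjd-5.

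The readers hpl-1 and hpl-2, which encode the worm's heterochromatin proteins, had no optimal summit. Their highest pooled candidates had signals of 13.5 and 6.30. At hpl-1 the highest candidate of each replicate within 2000 bp ranked 5437 in replicate 1 and 4963 in replicate 2, while at hpl-2 replicate 1 held no candidate within 2000 bp and the highest of replicate 2 ranked 14129.

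Among the remodellers, all 7 swsn- genes for SWI/SNF subunits had a pooled candidate, as did 68.6% of all genes, and 2 had an optimal summit, against 15.4% of all genes. The gene swsn-3, for an HMG-box subunit, had its summit 155 bp upstream (rank 217, pooled signal 76.0), at the 87.8th percentile in replicate 1 and the 93.4th in replicate 2. No other protein-coding 5′ end lay within 2000 bp of it, although it lay inside the annotated span of cox-6B on the other strand. The gene swsn-6, for an actin-related subunit, had its summit 130 bp upstream (rank 378, pooled signal 63.2), at the 71.4th and 83.5th percentile, and 99 bp from the 5′ end of perm-3. The other 5 reached pooled signals of 22.5 at swsn-9 (a bromodomain subunit), 17.8 at swsn-7, 16.8 at swsn-1 (a core scaffold subunit), 14.0 at swsn-2.2 and 13.5 at swsn-4, the ATPase itself. The highest candidates within 2000 bp in replicates 1 and 2, which need not be the same peak, ranked 1764 and 8008 at swsn-9, 2469 and 4410 at swsn-7, and 15389 and 2535 at swsn-1. Each of these 3 genes therefore had one of the 2631 highest peaks in 1 replicate only.

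**Figure D1:**
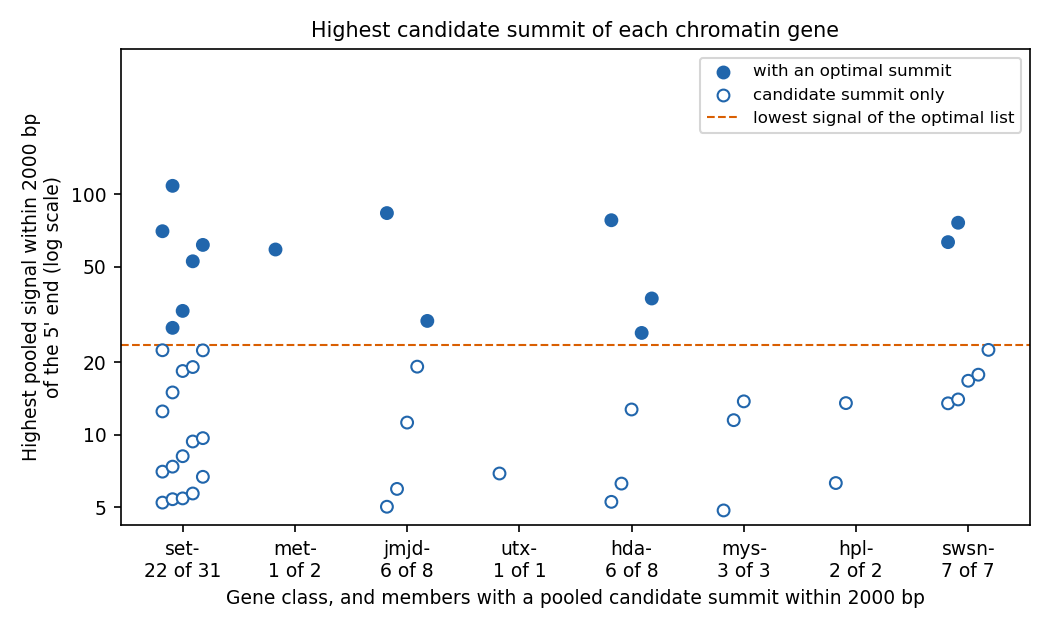
The plot gives the highest pooled signal within 2000 bp of the 5′ end of each member (log scale) by gene class, filled where an optimal summit was present, with the number of members that had a pooled candidate under each class. The filled points run from 26.5 at hda-1 to 108 at set-16, and the open points reach 22.5, just under the lowest optimal signal of 23.5.

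Every member is covered by these lists as follows. Of the 48 members with no optimal summit, 34 had a pooled candidate, with signals between 4.84 and 22.5 and a median of 10.5, and 14 had none. Just above the threshold stood hda-1 with 26.5, and just below it swsn-9 with 22.5, set-1 with 22.4 and set-2 with 22.4. Over all members with a candidate the median of the highest signal was 13.9, against 9.11 over the 13693 protein-coding genes with one. In 8 members no list held any summit within 2000 bp: hda-10, jmjd-3.3, jmjd-5, set-6, set-8, set-14, set-28 and set-29. Of the 48, 3 had a summit among the 2631 highest of replicate 1 (set-1, swsn-7 and swsn-9), 2 others among those of replicate 2 (jmjd-2 and swsn-1), and none in both.

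The 14 peaks were high for the list. Each member had 1 peak, and the median rank was 429, against 1224 for the 1997 optimal peaks within 2000 bp of any protein-coding 5′ end, while the median pooled signal was 60.3 against 38.0. Of the 14, 10 lay among the 1315 highest optimal peaks (71.4%, against 53.4%). All 14 overlapped a peak in each replicate, as did 2566 of all 2631 optimal peaks. Among the 2631 highest of both replicates lay 10 (71.4%), against 58.7% of the 1997 peaks. Members' peaks were reached through genes, while each of the 1997 peaks was counted once. The medians and shares set against those peaks here are therefore not like for like. In the highest peaks of replicate 1 alone, 16 summits at 15 members had a median rank of 853.5, and in those of replicate 2 alone, 13 summits at 13 members had a median rank of 428.

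The mean percentile over both replicates ran from 96.6 ± 2.12 at set-16 (SD, n = 2) to 18.2 ± 3.53 at hda-1. It was 91.1 ± 7.28 at jmjd-1.2, 91.0 ± 2.95 at hda-6 and 90.6 ± 3.94 at swsn-3, values that differ by less than their spread. It was above 70 at 9 of the 14 peaks. Its median was 76.6, against 47.8 over the 1943 peaks near protein-coding 5′ ends that were found in both replicates. Those 1943 peaks were likewise counted once each, so these medians are not like for like. By percentile, 10 member peaks stood higher in replicate 2 and 4 in replicate 1, and the same counts over all optimal peaks were not made. In 3 cases, hda-11 (36.5 ± 48.5), set-5 (43.6 ± 43.1) and set-4 (76.5 ± 21.8), the replicates lay more than 30 points apart. The median SD over the 14 was 10.8 points, against 17.3 over all optimal peaks found in both replicates. The 14 stood higher by rank than the list, and the SDs were not compared at matched rank.

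**Figure D2:**
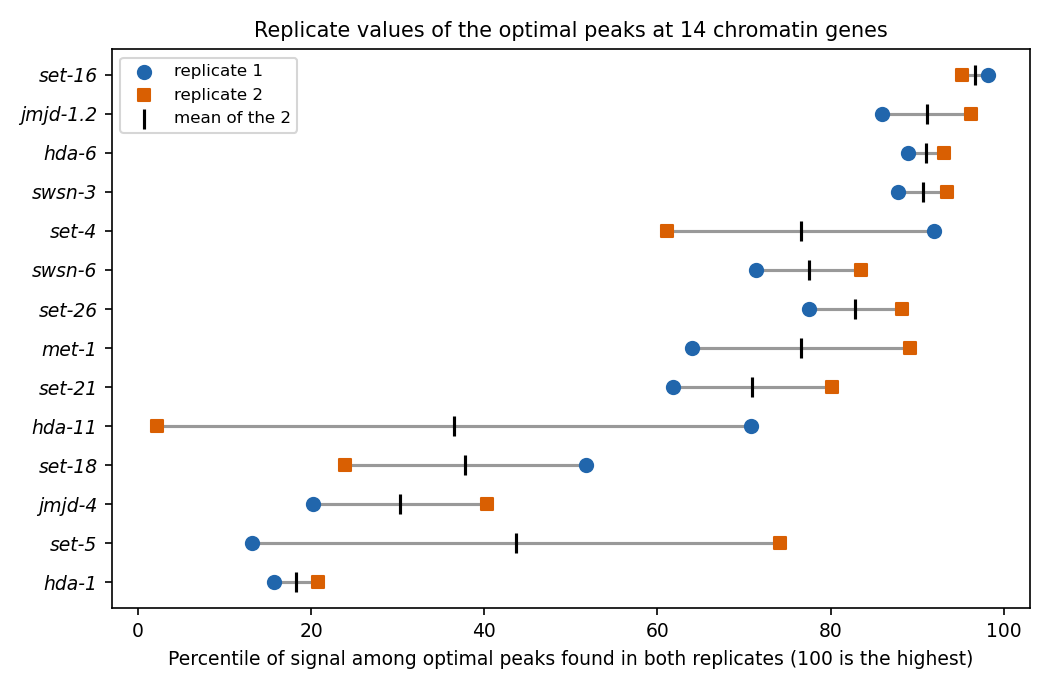
The plot gives, for each of the 14 members from the highest pooled signal at the top to the lowest, the percentile of its peak in replicate 1 (circles) and replicate 2 (squares) with their mean as a tick. At hda-11 and set-5 the 2 points lie far apart, while at set-16 they are 98.1 and 95.1.

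By position the summits lay close upstream of the genes. Upstream of the member's 5′ end were 13 of 14 (92.9%, against 82.5% of the 3373 pairs of any protein-coding gene and an optimal summit), and the median position was -162 bp, against -250 bp. Within 500 bp of the member's own 5′ end lay 10 (71.4%, against 53.6%). Within 500 bp of some protein-coding 5′ end lay 13 (92.9%, against 68.8% of the 1997 peaks), the exception being the intron peak of set-18. The 68.8% counts each peak once, not each pair of gene and summit, so it is not like for like with the members' share. G and C made up a median of 44.8% within 100 bp of the summit, against 41.8% over the 1997 peaks, each again counted once.

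Many of the summits were shared with a neighbour. Another protein-coding 5′ end lay within 2000 bp of 11 of the 14 summits (78.6%, against 51.4% of the 1997 peaks). The members' summits were reached through genes, while each of the 1997 peaks was counted once. A peak near several genes therefore weighs less in the 51.4%, and these shares are not like for like. At 10 members the summit stood between the member's 5′ end and that of a gene upstream on the opposite strand, an arrangement called head-to-head, and at 7 of these 10 the neighbour was the nearer gene. The exceptions were swsn-3, set-4, met-1 and set-18. With the gap to the neighbour limited to 1000 bp, 8 of the 14 members with an optimal summit (57.1%) had such a neighbour, against 1104 of the 3066 protein-coding genes with an optimal summit.

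**Figure D3:**
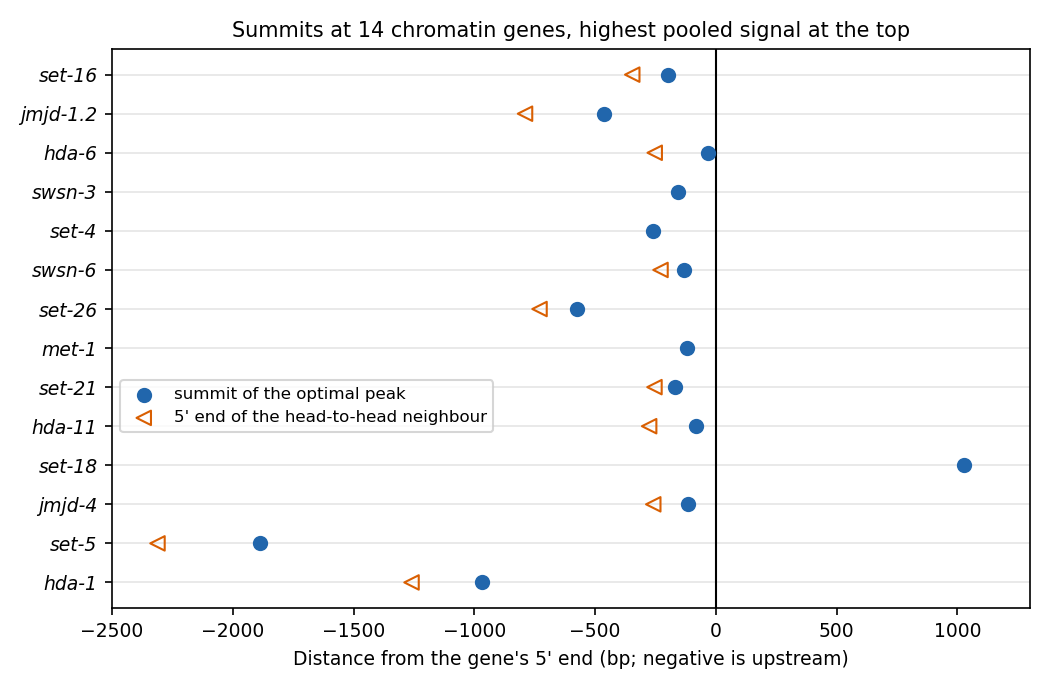
The plot gives the distance in bp of each optimal summit (filled circles) from the 5′ end of its member at 0. Open triangles mark the 5′ end of the head-to-head neighbour where there was one, here with gaps of up to 2312 bp. All circles but that of set-18 lie left of 0, and in each of the 10 rows with a triangle the circle lies between it and 0.

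A split of the members by such neighbours, chosen after these values were seen, gave unequal shares. An opposite-strand 5′ end within 1000 bp upstream was present at 12 of 62 members (19.4%, against 17.7% of all protein-coding genes). Of these 12, 8 had an optimal summit (66.7%), against 1104 of 3539 such genes overall (31.2%). Of the other 50 members, 6 had one (12.0%), against 1962 of 16434 (11.9%). The 8 were hda-6, hda-11, jmjd-1.2, jmjd-4, set-16, set-21, set-26 and swsn-6, and the 4 without a summit were set-17, set-31, set-32 and swsn-2.2. A summit between 2 such genes cannot be assigned to either by position, and the part of the neighbours in the members' count was not tested.

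**Figure D4:**
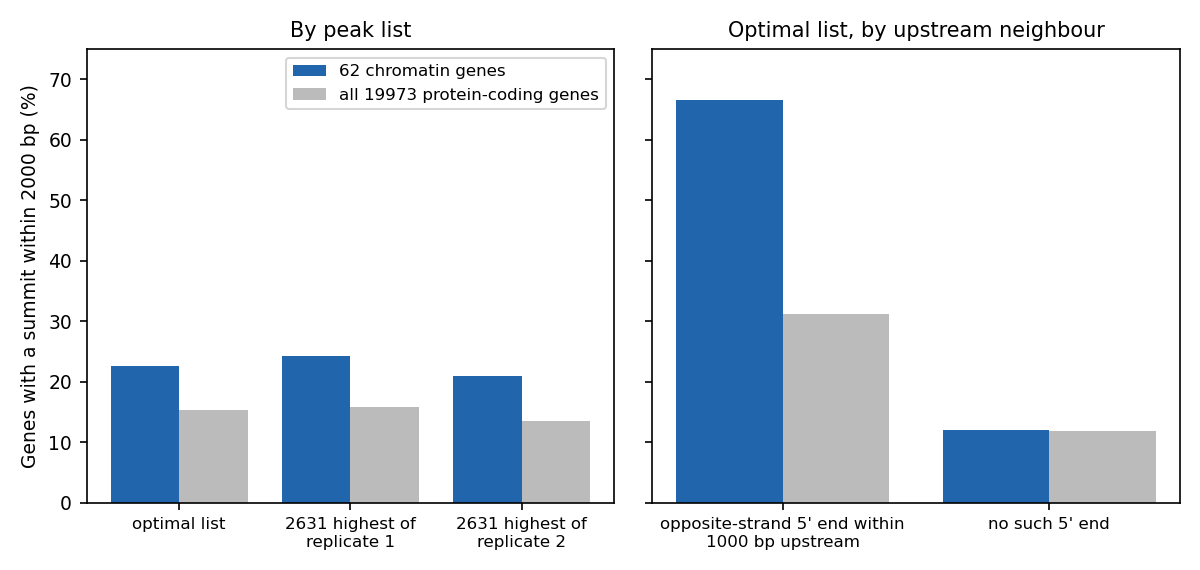
Bars give the percentage of genes with a summit within 2000 bp for the 62 chromatin genes (blue, left of each pair) and for all 19973 protein-coding genes (grey), by peak list in the left panel and, for the optimal list, by upstream neighbour in the right panel. The pair for genes with a head-to-head neighbour stands at 66.7% and 31.2%, and the pair for the rest at 12.0% and 11.9%.

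Other chromatin genes, outside the name rule, were taken from a list written by hand with earlier results of these data known, so its share may in part be set by the choice and supports nothing. Of 69 names 68 matched a gene model, and 35 of these (51.5%) had an optimal summit within 2000 bp, against 15.4% of all genes. The highest optimal summits of these genes had a median rank of 964, against 1224 for the optimal peaks near any protein-coding gene. The 964 takes the highest summit per gene and the 1224 counts every peak once, so these medians are not like for like. Among the Polycomb-like genes mes-2 and mes-6 had one and mes-3 did not, and among the COMPASS genes ash-2 and dpy-30 had one while wdr-5.1, wdr-5.2, rbbp-5, cfp-1 and pis-1 did not. The histone variant gene htz-1 had the highest (rank 37, pooled signal 120, 315 bp upstream of its 5′ end), at rank 190 in replicate 1 and 4 in replicate 2, but this summit lay nearer to wapl-1, at 161 bp. The acetyltransferase gene cbp-1 followed (rank 108, 906 bp upstream, ranks 166 and 115), then ash-2 (rank 126, ranks 126 and 634), whose summit lay 489 bp downstream of its 5′ end and 483 bp from that of Y17G7B.20. The peaks at mes-6, lin-13 and phf-10 overlapped no peak of replicate 2. The peaks at htz-1, cbp-1 and ash-2 were each among the 2631 highest of both replicates.

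These groups are small, and 15.4% of all genes had an optimal summit. Group names come from the hand-written list and need not describe every gene in a group. Of 14 genes placed under acetyltransferases and readers, 10 had an optimal summit (cbp-1, pcaf-1, hat-1, bet-1, bet-2, mrg-1, trr-1, epc-1, cec-4 and lin-13). Of 20 placed under other remodellers and chaperones, 11 had one (htz-1, ruvb-2, chd-7, nurf-1, let-526, unc-85, gfl-1, phf-10, dpff-1, isw-1 and pbrm-1). So did 3 of 8 genes of the nucleosome remodelling and deacetylase complex and its partners (lin-53, rba-1 and mep-1), 3 of 6 methyltransferases (lin-59, dot-1.1 and prmt-1), 2 of 6 demethylases (lsd-1 and rbr-2) and 2 of 4 sirtuins (sir-2.1 and sir-2.2). The summit of lin-53 was also that of rba-1, and the highest of mep-1 was that of gfl-1. Of the SWI/SNF partners outside the swsn- names, let-526, pbrm-1, phf-10 and dpff-1 had one and snfc-5 did not.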

How the data were processed

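The data were ChIP-seq peak lists of 2 biological replicates, given on ce11 with 10 columns per peak and no header. Per the labels, fragments were 150 to 350 bp. The deposited signal is the authors' peak-caller value and was used to rank or describe peaks within a list only. The deposited −log10 q-value was 3.72 for every optimal peak and was not used. Deposited notes trace the optimal list to the pooled list and those of both replicates, and its peaks were the 2631 highest pooled ones. Aligner and peak caller: not given in the sources used here. Without read counts in these lists the depth is unknown, and no read-based interval is given.

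No ce11 peak extended past a chromosome end of the WBcel235 genome. The 5′ ends are those of Ensembl release 115 gene models, with nuclear chromosomes only, and a summit is the start column plus the summit offset. For percentiles, optimal peaks overlapped by at least 1 bp in both replicates' lists (2566) were ranked by signal in each replicate, with the highest overlapping peak taken. Uniqueness was the share of 36-base stretches found once in the genome on either strand. Python 3.11.15 with pandas 2.3.3, numpy 2.4.6 and matplotlib 3.10.9 was used, and the assignment was checked on planted summits. No test was run.

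The members and the list of other chromatin genes were chosen with earlier results of these data known. Named genes were all members with an optimal summit, all members outside the set- class, set-2, set-17, set-25, set-32 and the 3 set- members with the highest candidate below the threshold, and listed other chromatin genes with an optimal summit or in the Polycomb-like and COMPASS groups; set-9 and the members with no summit or a head-to-head neighbour were named after their values were seen. Alternatives were the distance limit, nearest gene only, transcript 5′ ends, only the 1315 highest peaks, no peaks at short non-coding RNA genes, single replicates, any base of the peak, and the motif window.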

Additional observations from a re-analysis of the deposited data

How the results depend on the processing

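The count of 14 members with an optimal summit fell to 7 when a summit was given only to its nearest gene, and lay between 10 and 14 under the other alternatives that kept both replicates. The lists without one replicate gave 13 to 15, and 11 of the 14 were kept without replicate 1 (hda-1, hda-11 and set-18 were lost) and 12 without replicate 2 (hda-1 and set-5 were lost). The 4 genes hda-6, met-1, set-4 and swsn-3 were kept under all alternatives run. The ratio of the members' share to that of all genes was 1.47, and was 1.79 with a limit of 500 bp, 1.71 with 1000 bp, 1.21 for the nearest gene only, 1.40 with any transcript 5′ end, 1.76 among the 1315 highest peaks, 1.54 with no peaks at short non-coding RNA genes, 1.43 when any base of the peak counted, and 1.53 to 1.55 without one replicate. It stayed above 1 under all of these, but the settings that kept both replicates added no member to the 14. Their ratios therefore rest on the same member peaks and are not independent of each other. The median rank of 429 was 428 to 853.5 without one replicate. The 2 member summits with TGTTTAC or TGTTTGC became 0 with a limit of 500 bp and 0 for the nearest gene only, since both summits lie farther than that or nearer to a neighbour, 1 among the 1315 highest peaks, and 1 without either replicate. Of the other chromatin genes, 35 became 22 with a limit of 500 bp, 21 among the 1315 highest peaks and 26 for the nearest gene only, while the 3066 of all genes became 1796, 1832 and 1864 under the same 3 settings. All 14 member peaks were found in both replicates, 13 at an overlap of at least 50%. No paired analysis was possible because there is 1 group. Peaks below the authors' thresholds are candidates that include background, and depth, which is unknown, limits which members could be detected.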
